A study of Mus musculus with 6 samples.

Results

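Collagens are the structural proteins of the extracellular matrix, and 42 mouse collagen genes, of 18193 genes in all, were measured in the colon of mice that lack Hnf4α in the gut epithelium. They were all genes whose symbol is Col, a number, the letter a and a number (such as Col1a1), were covered by 82 probe sets of the array, and each gene was represented by the probe set with the highest mean over the arrays. They comprised 11 fibrillar collagens, 8 basement membrane collagens and 23 others. The 23 others were 9 fibril-associated collagens, 5 of the beaded filament, 4 transmembrane collagens, 3 of the short chain networks, the anchoring fibril collagen Col7a1 and Col26a1.

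Each collagen is built of 3 chains, called alpha chains, that wind into a triple helix. Fibrillar collagens (types I, II, III, V, XI, XXIV and XXVII) assemble into the fibrils that give tissue its tensile strength, and in the gut wall fibroblasts and smooth muscle cells make most of them. Type IV collagen forms the sheet-like network of basement membranes, which underlie the epithelium and surround muscle cells and vessels.

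Total RNA came from the proximal colon of 3 mutant and 3 control mice at 12 months of age, 1 mouse per array, hybridised to Affymetrix whole-genome mouse arrays. The mutants carried loxP-flanked Hnf4α alleles and Cre under the Villin promoter, which directs the deletion to intestinal epithelial cells. The controls were littermates labelled wildtype, and all mice were kept free of pathogens and injected with ketamine and xylazine before sacrifice. All values are log2 signals as normalized by RMA, a scale on which a difference of 1 is a factor of 2.

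Hnf4a had log2 signals between 10.09 and 10.17 in the 3 mutants and between 11.97 and 12.23 in the 3 controls. The labels give female for mutant 1 and the 3 controls and male for mutants 2 and 3, whereas Xist, the RNA of the inactive X chromosome, lay between 5.03 and 5.32 in the 3 mutants and between 9.94 and 10.96 in the 3 controls. The RNA of mutant 1 therefore did not match its labelled sex, and sex cannot be told apart from genotype in any value given here. Epcam, an adhesion molecule of the gut epithelium, was between 12.74 and 12.93 in mutants and between 12.82 and 13.09 in controls. The signals of 3 Y-linked genes in the control arrays, between 2.75 and 4.01, served as a guide to the level of a gene that is not expressed.

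Mutant 2 stood apart in RNA of the gut wall. Taken from the control mean, 12 of 12 smooth muscle markers had a median difference of -0.28, -3.84 and -0.42 in mutants 1, 2 and 3. The median of 13 of 13 fibroblast and matrix markers, collagens not among them, was -0.29, -2.80 and -0.51, and that of 8 of 8 endothelial markers was -0.28, -1.62 and -0.43. The 12 gut epithelium markers, all measured, had medians of 0.05, 0.20 and 0.17. In the sums of linear signal, the smooth muscle markers reached 3469 in mutant 2 and 36910 to 41050 in the other mutants, against 46250 to 49790 in the controls. The fibroblast and matrix markers summed to 1326 in mutant 2 and 7651 to 8872 in the other mutants, against 10500 to 12370 in the controls. In bulk RNA, fewer cells of a type and less RNA per cell cannot be told apart. Mutants 1 and 3 are therefore also given without mutant 2, and mutant 2 is given as values with no test.

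No collagen gene passed the test between mutants and controls. By limma, with an adjusted p below 0.05, 0 of 42 fell (0.396% of all genes) and 0 of 42 rose (0.484% of all genes), where 0.879% of all genes were called in either direction, and the smallest adjusted p among the collagens was 0.251. At an unadjusted p up to 0.05, 1 collagen gene, Col4a6, was lower (6.18% of all genes) and none was higher (10.0% of all genes). Without mutant 1, which left mutant 2 as 1 of the remaining 2 mutants, 5 were lower (Col3a1, Col4a1, Col4a5, Col4a6 and Col5a2, beside 7.32% of all genes) and 1, Col22a1, was higher (9.59% of all genes). The 3 mutants lay below the 3 controls for 5 of the 42 (8.86% of all genes) and above them for 1 (14.5% of all genes), shares near or below those of all genes. The median log2 fold change, mutant minus control, was -0.14 over the 42 genes and 0.05 over all genes, and 29 of the 42 were negative. A p that misses the threshold does not show that a gene was equal in both groups, since the 3 mutants of the abundant collagens differed among themselves by over 2 on the log2 scale.

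The collagens that were low in mutant 2 were mostly those with a high signal. Mutant 2 lay at least 1 below the mean of the controls for 14 of the 42 collagen genes, where it did so for 5.05% of all genes. Mutant 1 did so for 0 of 42 (1.18% of all genes) and mutant 3 for 1 of 42 (1.43% of all genes), which was Col4a5. Of the 8 collagen genes with a mean of 8 or more over the 6 arrays, all 8 were in the group of 14, with differences in mutant 2 between -4.21 and -2.57. Of 5248 genes in all with such a mean, 247 lay at least 1 below the control mean in mutant 2. Of 14 collagen genes with a mean of 6 to under 8, 5 did so, beside 485 of 5282 genes in all. Of 20 with a mean under 6 only Col5a3 did so, with -1.04, beside 186 of 7663 genes in all. Since a low signal has little room to decrease on this scale, the size of these differences cannot be compared between strong and weak genes. Of the 14 genes, 11 had a second probe set, and in 7 of these it too lay at least 1 below the control mean in mutant 2, but not for Col1a1, Col5a2, Col5a3 and Col6a4. Dimmer probe sets of 3 further genes, Col12a1, Col18a1 and Col23a1, did so as well.

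**Figure D1:**
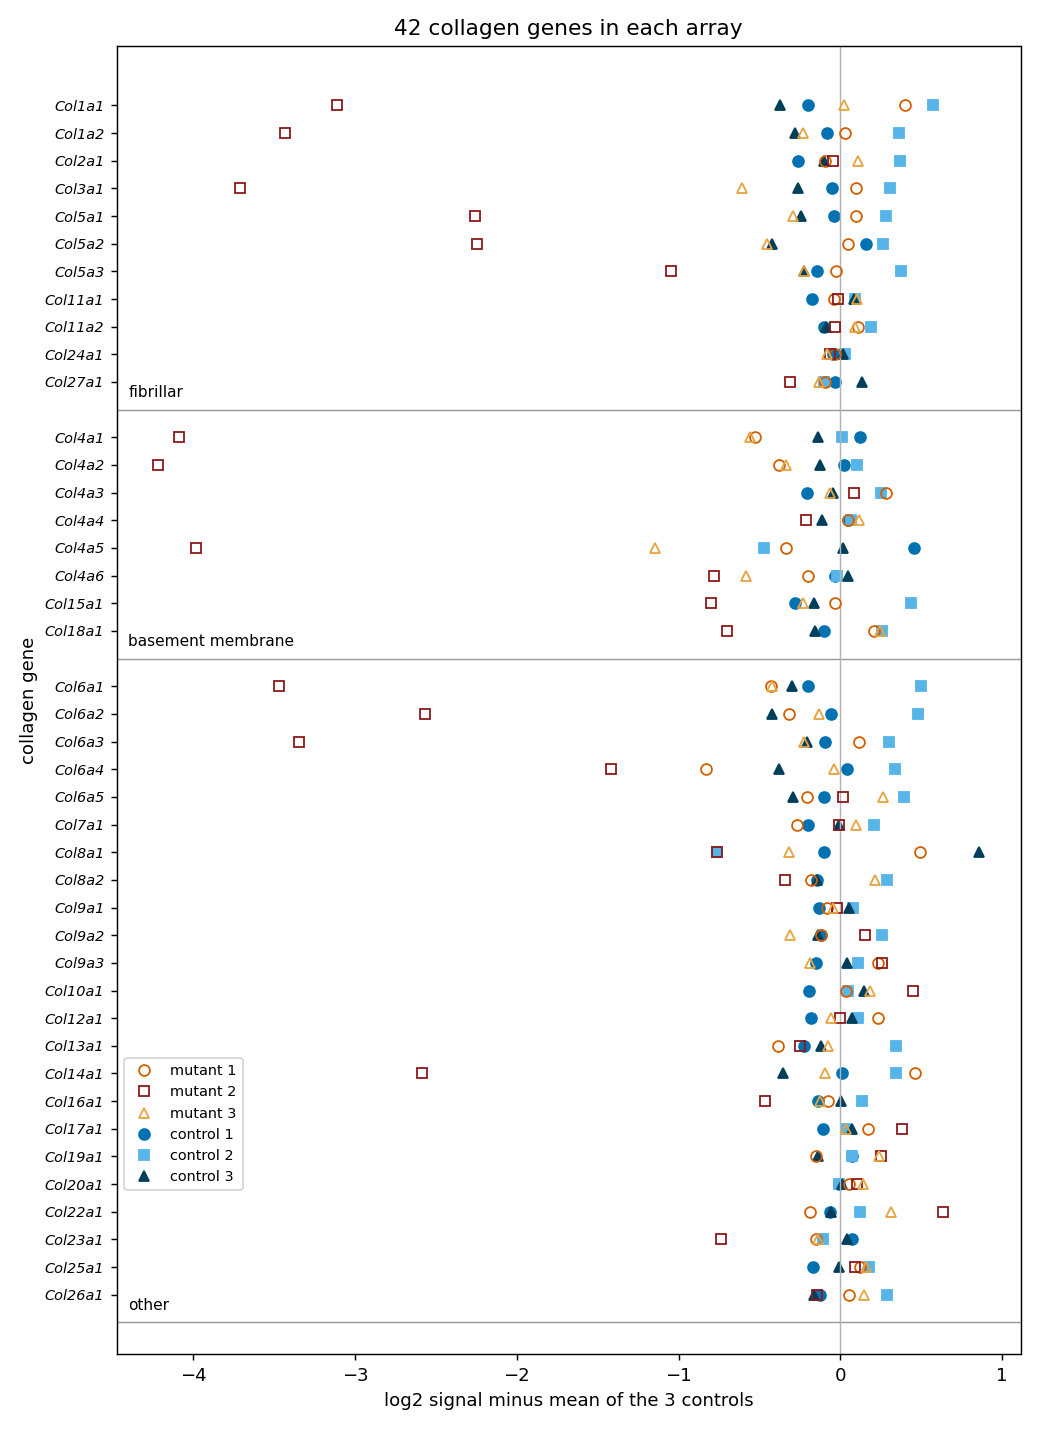
Difference in log2 signal from the control mean (horizontal axis) for the 42 collagen genes (vertical axis), grouped as fibrillar, basement membrane and other. Open symbols are mutants and filled symbols controls. Mutant 2, the open square, reaches -4.21 for Col4a2, while mutants 1 and 3 mostly lie among the controls.

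The fibrillar collagens of types I and III were far below the controls in mutant 2. In mutants 1 and 3 they were close to the controls, except that Col3a1 in mutant 3 lay below every control. Col1a1, which encodes the alpha 1 chain of type I collagen, the main collagen of most connective tissue, had log2 signals of 9.28, 5.77 and 8.90 in mutants 1, 2 and 3, against 8.68, 9.45 and 8.51 in controls 1, 2 and 3. Col1a2, its alpha 2 chain, had 10.13, 6.67 and 9.87 in the mutants, against 10.02, 10.46 and 9.82 in the controls. For both genes mutants 1 and 3 lay within the range of the controls, and mutant 2 alone was below it, 8.64-fold for Col1a1 and 10.8-fold for Col1a2 relative to the control mean. A dimmer probe set of Col1a1 was 1.87-fold below it in mutant 2, with 7.50, 6.11 and 6.95 in the mutants, against 6.76, 7.58 and 6.69 in the controls, and one of Col1a2 had a difference of -3.01. With all 6 arrays the log2 fold change of Col1a1 was -0.90 (standard error, SE, of 0.88, limma adjusted p = 0.682) and that of Col1a2 was -1.21 (SE 0.86, adjusted p = 0.573). Without mutant 2 they were 0.21 (SE 0.29) and -0.10 (SE 0.21), so that the sign for Col1a1 turned. The dimmer probe set of Col1a1 had -0.16 (SE 0.39) with all arrays.

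Col3a1, the single chain of type III collagen, which forms fine fibrils together with type I, had 11.73, 7.92 and 11.02 in mutants 1, 2 and 3, against 11.58, 11.94 and 11.37 in the controls. Mutant 1 lay among the controls, mutant 3 was 0.61 below their mean and mutant 2 was 13.1-fold below it. The log2 fold change was -1.40 (SE 0.90, limma adjusted p = 0.534), and it was -0.25 (SE 0.26, adjusted p = 0.837) without mutant 2.

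The start sites of Col1a2 and Col3a1, 2 genes that were low together in mutant 2, are shown by the 150 bases before each start as RefSeq places it in build GRCm38.p6, with capitals marking any of 3 promoter motifs searched on both strands. The motifs were CCAAT, the box bound by NF-Y, GGGCGG, the GC box bound by Sp1, and TATAAA, the TATA box, and none of them contains another.
Col1a2, chr6:4505468-4505617, plus strand: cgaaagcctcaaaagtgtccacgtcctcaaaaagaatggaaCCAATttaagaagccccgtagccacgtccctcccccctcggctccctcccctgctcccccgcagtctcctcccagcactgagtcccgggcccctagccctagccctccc
Col3a1, chr1:45311388-45311537, plus strand: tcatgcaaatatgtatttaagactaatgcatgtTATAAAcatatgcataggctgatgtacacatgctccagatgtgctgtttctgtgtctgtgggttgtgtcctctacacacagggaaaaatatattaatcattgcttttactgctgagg
The 2 stretches share none of these motifs. Col1a2 holds a CCAAT box 109 bases before its start, and Col3a1 a TATAAA 117 bases before its start. RefSeq windows of 250 bases before to 50 after a start were at hand for 33 of the 42 collagen genes, 36 windows in all. CCAAT stood in 36.1% of the collagen windows and 37.4% of 32851 windows of all genes, TATAAA in 13.9% and 13.6%, and GGGCGG in 61.1% and 35.7%. These matches are a description of letters and not of binding.

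Type V collagen, which joins type I fibrils and limits their width, was likewise below the controls in mutant 2. Col5a1 had log2 signals of 7.61, 5.25 and 7.22 in mutants 1, 2 and 3, against 7.47, 7.79 and 7.27 in the controls, and Col5a2 had 7.94, 5.65 and 7.44 in the mutants, against 8.05, 8.16 and 7.47 in the controls. Mutant 1 lay among the controls for both genes, mutant 3 was just under the lowest control, and mutant 2 was 4.78-fold and 4.72-fold below the control mean. The log2 fold changes with all arrays were -0.81 (SE 0.57, limma adjusted p = 0.569) for Col5a1 and -0.88 (SE 0.56, adjusted p = 0.531) for Col5a2. Without mutant 2 they were -0.09 (SE 0.20) and -0.20 (SE 0.25). Col5a3, the third type V chain, had 5.81, 4.79 and 5.61 in mutants, against 5.69, 6.21 and 5.61 in controls.

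The remaining fibrillar genes were low or even. Col11a1, a chain of the cartilage collagen type XI, and Col24a1 did not exceed the range of the Y-linked genes in any array. Col2a1, the main collagen of cartilage, Col11a2 and Col27a1 had differences in mutant 2 between -0.31 and -0.03. The median log2 fold change of the 11 fibrillar genes was -0.43 with all arrays and -0.09 without mutant 2. Among the controls, control 2 was highest for 10 of these 11 genes, and for 33 of the 42 collagen genes (8991 of 18193 genes in all).

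**Figure D2:**
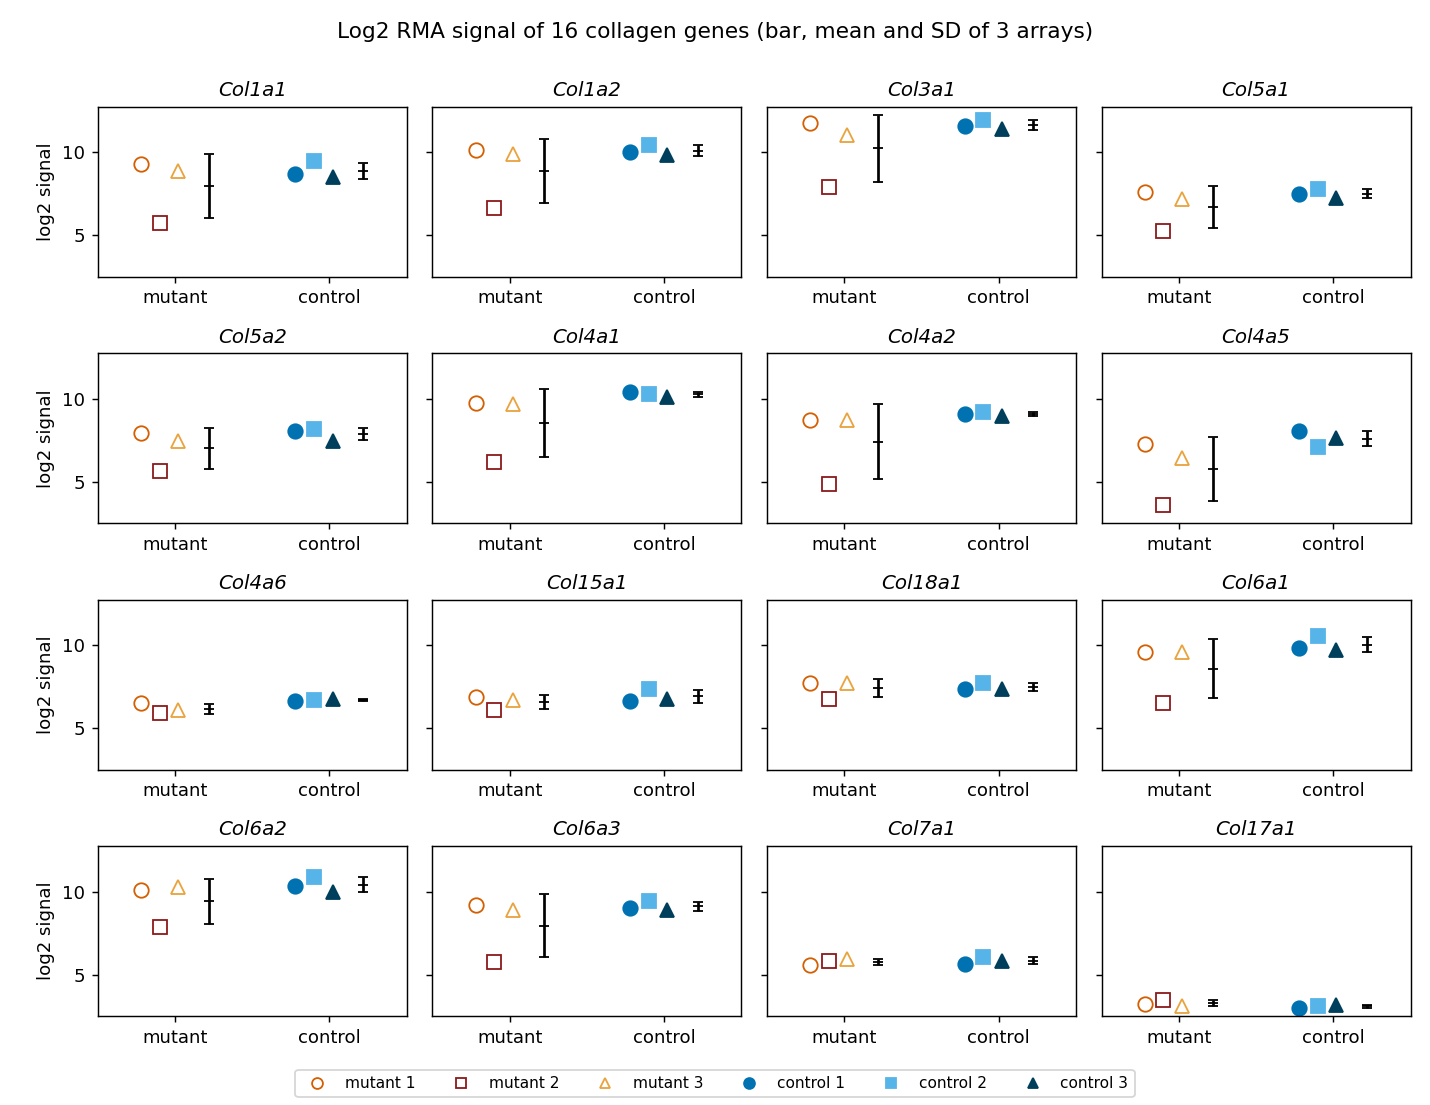
Log2 RMA signal (vertical axis) of 16 collagen genes in the 3 mutants (open symbols, left) and the 3 controls (filled symbols, right), with bars at the mean and SD of each group. The wide bars of the mutants come from mutant 2, as in Col3a1 with 7.92 beside 11.73 and 11.02, while Col4a1 and Col4a2 are lower than every control in all 3 mutants.

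Among the basement membrane collagens, the type IV chains with a high signal were lower than the controls in each mutant. Col4a1 and Col4a2 encode the 2 chains of the type IV collagen found in nearly all basement membranes. Col4a1 had log2 signals of 9.73, 6.17 and 9.70 in mutants 1, 2 and 3, against 10.38, 10.27 and 10.12 in controls 1, 2 and 3. Col4a2 had 8.69, 4.85 and 8.73 in the mutants, against 9.09, 9.17 and 8.94 in the controls. The groups did not overlap for either gene. Mutants 1 and 3 lay 0.53 and 0.56 below the control mean for Col4a1 and 0.37 and 0.34 below it for Col4a2, and mutant 2 was 17.0-fold and 18.5-fold below it.

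With all 6 arrays, Col4a1 averaged 8.53 ± 2.05 in mutants and 10.26 ± 0.13 in controls (SD, n = 3 each), a log2 fold change of -1.73 (SE 0.91, limma adjusted p = 0.462). Col4a2 averaged 7.43 ± 2.23 in mutants and 9.07 ± 0.11 in controls (SD, n = 3 each), a log2 fold change of -1.64 (SE 0.98, limma adjusted p = 0.507). Without mutant 2 the differences were smaller and their errors much smaller, at -0.54 (SE 0.12, unadjusted p = 0.00361, limma adjusted p = 0.219) for Col4a1 and -0.36 (SE 0.12, unadjusted p = 0.0210, limma adjusted p = 0.411) for Col4a2. Neither passed the threshold over all probe sets. A dimmer probe set of Col4a1 gave -1.33 with all arrays and -0.39 without mutant 2.

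Both genes start at the same place. RefSeq places the starts of Col4a1 and Col4a2 on opposite strands of chromosome 8, 21 bases apart and with the first bases overlapping, and those of Col4a6 and Col4a5 on opposite strands of chromosome X, 1343 bases apart. The 100 bases before each start of the X-linked pair are shown, on the strand of the gene, with the GC box (GGGCGG, or CCGCCC on the other strand) in capitals, because these genes include the collagen with the smallest p.
Col4a5, chrX:141475319-141475418, plus strand: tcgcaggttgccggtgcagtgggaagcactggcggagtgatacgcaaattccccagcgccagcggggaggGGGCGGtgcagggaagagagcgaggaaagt
Col4a6, chrX:141474077-141474176, minus strand: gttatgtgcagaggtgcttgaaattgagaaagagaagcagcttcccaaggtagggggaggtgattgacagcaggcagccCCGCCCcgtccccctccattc
Each of these stretches holds 1 GC box, 30 bases before the start of Col4a5 and 21 bases before that of Col4a6.

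Col4a5 and Col4a6 encode chains that join in a further type IV network, known from the basement membranes of smooth muscle and of some epithelia. Col4a6 had log2 signals of 6.50, 5.92 and 6.12 in mutants 1, 2 and 3, against 6.67, 6.68 and 6.75 in the controls. All 3 mutants lay below the controls, which differed among themselves by less than 0.1. It averaged 6.18 ± 0.29 in mutants and 6.70 ± 0.04 in controls (SD, n = 3 each), a log2 fold change of -0.52 (SE 0.15, unadjusted p = 0.0122, limma adjusted p = 0.251). Without mutant 2 it was -0.39 (SE 0.14, unadjusted p = 0.0317, limma adjusted p = 0.464), and its dimmer probe set gave -0.38 with all arrays.

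Col4a5 had 7.26, 3.61 and 6.45 in mutants 1, 2 and 3, against 8.05, 7.12 and 7.61 in the controls. Mutant 1 lay above control 2, so that the groups overlapped. Mutant 2 lay within the range of the Y-linked genes in the controls, so that the size of its measured difference of -3.99 is uncertain. The log2 fold change was -1.82 (SE 0.87, limma adjusted p = 0.431) with all arrays and -0.74 (SE 0.33, adjusted p = 0.583) without mutant 2. The groups did not overlap in its dimmer probe set, with 6.36, 5.14 and 5.80 in the mutants, against 6.98, 6.44 and 6.68 in the controls. That probe set gave -0.93 (SE 0.30, unadjusted p = 0.0190, limma adjusted p = 0.288) with all arrays, and -0.62 without mutant 2. Its difference in mutant 2 was -1.56, so that the 2 probe sets disagree in size there. Both genes are X-linked and the controls were female and the mutants male by their RNA. The part of sex in these values was not tested.

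The chains of the third type IV network, which is best known from the kidney, were low and even. Col4a3 was between 4.42 and 4.77 in mutants and between 4.28 and 4.74 in controls, and Col4a4 between 3.74 and 4.07 in mutants and between 3.84 and 4.02 in controls. Over the 6 type IV genes the median relative to the control mean was -0.27, -2.38 and -0.45 in mutants 1, 2 and 3. Of the 42 collagen genes 3 were lower at an unadjusted p up to 0.05 without mutant 2 (5.61% of all genes), and none was higher (6.29% of all genes). The 3 were Col4a1, Col4a2 and Col4a6. Both remaining mutants lay below the 3 controls for 5 collagen genes, which were these 3, Col6a1 and the transmembrane collagen Col23a1, a share close to the 11.8% of all genes, and above them for 1 (17.1% of all genes). No collagen gene passed an adjusted p of 0.05 without mutant 2 (0.528% of all genes).

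The basement membrane zone collagens Col15a1 and Col18a1, whose proteins carry sugar chains and whose ends yield the fragments restin and endostatin, were within the range of the controls in mutants 1 and 3. Col15a1 had 6.90, 6.13 and 6.70 in mutants 1, 2 and 3, against 6.65, 7.37 and 6.77 in the controls, a log2 fold change of -0.35 (SE 0.26, limma adjusted p = 0.581). Col18a1 had 7.70, 6.79 and 7.74 in the mutants, against 7.39, 7.75 and 7.34 in the controls, a log2 fold change of -0.09 (SE 0.27, adjusted p = 0.906). The differences in mutant 2 were -0.80 for Col15a1 and -0.71 for Col18a1, and -1.36 in a dimmer probe set of Col18a1. Without mutant 2 Col18a1 had 0.22 (SE 0.15). The differences between these genes and Col4a1 were not tested.

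Type VI collagen forms beaded filaments that lie between the fibrils and the basement membrane. Col6a1 had log2 signals of 9.59, 6.55 and 9.60 in mutants 1, 2 and 3, against 9.82, 10.52 and 9.72 in the controls. Col6a2 had 10.09, 7.84 and 10.28 in the mutants, against 10.35, 10.89 and 9.99 in the controls. Col6a3 had 9.22, 5.76 and 8.88 in the mutants, against 9.01, 9.41 and 8.90 in the controls. For Col6a1 the 3 mutants lay below the 3 controls, while mutants 1 and 3 for Col6a2 and mutant 1 for Col6a3 lay among the controls.

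In mutant 2 the type VI chains were 11.1-fold (Col6a1), 5.93-fold (Col6a2) and 10.2-fold (Col6a3) below the control mean. The log2 fold changes with all arrays were -1.44 (SE 0.80, limma adjusted p = 0.478), -1.01 (SE 0.63, adjusted p = 0.526) and -1.15 (SE 0.85, adjusted p = 0.588), in the same order. Without mutant 2 they were -0.43, -0.23 and -0.05, with standard errors of 0.25, 0.26 and 0.19. Col6a4, a chain whose human counterpart is not intact, had 6.06, 5.47 and 6.85 in mutants, against 6.93, 7.23 and 6.51 in controls, and Col6a5 lay between 3.76 and 4.45 in all arrays.

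Col7a1 and Col17a1 bind stratified epithelium to its matrix, and of these only Col7a1 exceeded the range of the Y-linked genes in the controls. A signal above that range does not by itself show that a gene is expressed. Col7a1 forms the anchoring fibrils under stratified epithelium and had 5.57, 5.83 and 5.94 in mutants 1, 2 and 3, against 5.64, 6.05 and 5.83 in the controls, a log2 fold change of -0.06 (SE 0.15, limma adjusted p = 0.878). Col17a1, the transmembrane collagen of hemidesmosomes, had 3.27, 3.48 and 3.13 in the mutants, against 2.99, 3.13 and 3.17 in the controls, with a log2 fold change of 0.20 (SE 0.12, adjusted p = 0.511). All 6 values of Col17a1 lay within the range of the Y-linked genes in the controls, so that this probe set, its only one, gave no measurable level. Mutant 2 differed from the control mean of Col7a1 by -0.01. The medians of 9 measured squamous epithelium markers were 0.02, 0.18 and 0.02 in mutants 1, 2 and 3 and between -0.17 and 0.18 in the controls. At an unadjusted p up to 0.05, 1 of them, Krt13, was higher (10.0% of all genes). It had 4.93, 5.13 and 5.01 in mutants, against 3.89, 4.40 and 3.89 in controls (log2 fold change 0.96, SE 0.16, limma adjusted p = 0.0684). Controls 1 and 3 lay within the Y-linked range for this gene.

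Of the fibril-associated collagens, which decorate the surface of fibrils, Col14a1 was the 1 of 9 whose brightest probe set lay at least 1 below the control mean in mutant 2. It had 7.34, 4.29 and 6.78 in mutants, against 6.89, 7.22 and 6.52 in controls, 6.02-fold below the control mean in mutant 2, with a log2 fold change of -0.74 (SE 0.74, limma adjusted p = 0.687). Col12a1, a near relative in structure, was between 6.30 and 6.59 in mutants and between 6.18 and 6.47 in controls in its brightest probe set. Its next probe set read 6.66, 4.85 and 5.89 in mutants, against 6.31, 6.33 and 6.30 in controls, so that the 2 probe sets disagree in mutant 2. The 9 genes ranged in mutant 2 from -2.59 to 0.64, the highest being Col22a1, and Col20a1 was the 1 collagen gene for which the 3 mutants lay above the 3 controls, by 0.10. Col8a1, of the short chain collagen of vessel walls, had the widest spread in controls, with an SD of 0.81, against 0.63 in mutants. The transmembrane collagen Col23a1 was 6.25, 5.66 and 6.26 in mutants, against 6.47, 6.29 and 6.44 in controls, a log2 fold change of -0.34 (SE 0.18, limma adjusted p = 0.455). Its dimmer probe sets gave -0.59 (SE 0.26, adjusted p = 0.406) and -1.27 (SE 0.50, unadjusted p = 0.0399, limma adjusted p = 0.362), with mutant 2 at -1.13 and -2.51. The last of these was -0.65 without mutant 2. Over the 23 other collagens the median log2 fold change was -0.06 with all arrays and 0.02 without mutant 2. In all, 4 collagen genes, Col9a2, Col11a1, Col17a1 and Col24a1, did not exceed the Y-linked range in any array, and 2007 of all genes did not.

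**Figure D3:**
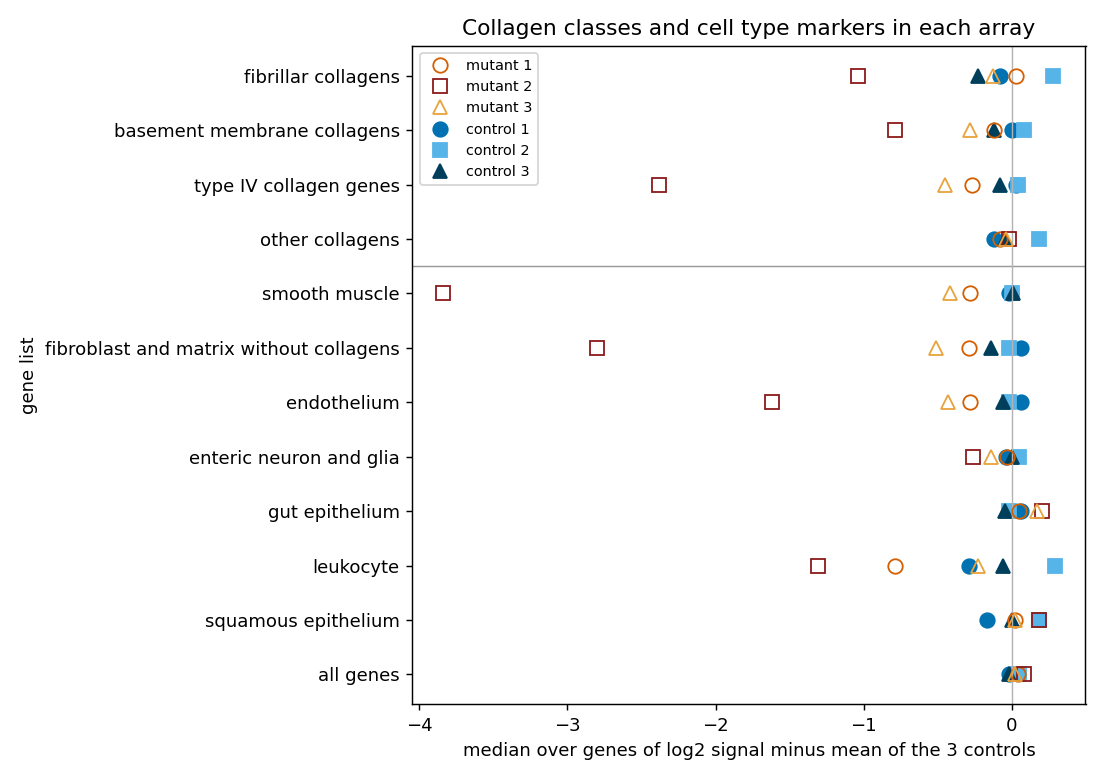
Median over the genes of each list of the difference in log2 signal from the control mean (horizontal axis), for the collagen classes and for markers of cell types (vertical axis). Open symbols are mutants and filled symbols controls. Mutant 2 stands at -2.38 for type IV collagens, -3.84 for smooth muscle and -2.80 for fibroblast markers, and at 0.20 for gut epithelium.

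The medians of the muscle, fibroblast and endothelial lists were below those of the controls in mutants 1 and 3 as well. In those 2 mutants the median was -0.35 for smooth muscle, -0.30 for the fibroblast and matrix markers and -0.38 for endothelium, beside -0.54 for Col4a1, -0.36 for Col4a2 and 0.21 for Col1a1. At an unadjusted p up to 0.05 without mutant 2, 7 of 12 smooth muscle, 5 of 13 fibroblast and matrix and 4 of 8 endothelial markers were lower (5.61% of all genes), and none was higher (6.29% of all genes). None of them passed the limma threshold of an adjusted p of 0.05. The leukocyte markers, 9 of 9 measured, had medians of -0.79, -1.31 and -0.23 in mutants 1, 2 and 3. With all arrays 5 were lower (6.18% of all genes) and 1, Cd68, was higher (10.0% of all genes) at an unadjusted p up to 0.05. Cd68 had 7.29, 7.63 and 7.69 in mutants, against 5.95, 7.01 and 5.81 in controls. In linear signal the leukocyte markers summed to 780.1 to 1837 in mutants and 2010 to 2381 in controls, and the endothelial markers to 409 to 863.5 in mutants and 980.5 to 1064 in controls. Enteric neuron and glia markers, 6 of 8 measured, had medians of -0.03, -0.26 and -0.14 in the mutants. The part of these cell types in the collagen values was not tested.

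Genes that make, crosslink, degrade or bind collagen gave no call either. Of 16 measured genes of chain synthesis and folding 0 rose and 0 fell by limma, with an adjusted p below 0.05, and at an unadjusted p up to 0.05, 2 were lower (6.18% of all genes, here and for the lists that follow) and none higher. These were Colgalt1, which adds galactose to hydroxylysine (log2 fold change -0.66, SE 0.20, adjusted p = 0.251), and P3h2, a prolyl 3-hydroxylase that acts on type IV collagen (-0.60, SE 0.23, adjusted p = 0.356). Colgalt1 had 7.84, 7.63 and 7.75 in mutants, against 8.67, 7.95 and 8.59 in controls, and passed the test without control 2 (-0.89, SE 0.11, limma adjusted p = 0.0409). The share of all genes called without control 2 was not counted. Serpinh1, the collagen chaperone HSP47, was 9.03, 6.11 and 8.70 in mutants, against 8.79, 8.93 and 8.72 in controls, in the manner of Col1a1. P4hb, a subunit of prolyl 4-hydroxylase that also serves as a general disulfide isomerase, was between 12.05 and 12.15 in mutants and between 11.87 and 12.10 in controls.

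Of 10 genes of propeptide removal and crosslinking none rose or fell, and 2 were lower at an unadjusted p up to 0.05. Bmp1, the protease that removes the C-terminal propeptide, had -0.43 (SE 0.12, limma adjusted p = 0.215), and Lox, lysyl oxidase, which crosslinks fibrils, had -0.75 (SE 0.30, adjusted p = 0.364). For Bmp1 the values were 6.76, 6.64 and 6.80 in mutants, against 7.34, 7.00 and 7.14 in controls, so that all 3 mutants were below the controls and mutant 2 was close to the others. Lox, with 6.15, 4.99 and 5.85 in mutants, against 6.70, 6.19 and 6.37 in controls, was lowest in mutant 2.

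Among 15 genes of collagen breakdown and its inhibitors 0 passed the test, and 1 was lower and none higher at an unadjusted p up to 0.05. Fap, a fibroblast protease, had -0.92 (SE 0.28, limma adjusted p = 0.255), and Timp3, an inhibitor of metalloproteinases held in the matrix, had the next smallest p, with -1.47 (SE 0.70, adjusted p = 0.430). Mmp13, an interstitial collagenase, was singled out after its values were seen. It had 7.00, 3.68 and 4.25 in mutants, against 4.01, 3.75 and 3.76 in controls, so that mutant 1 stood far above the other 5 arrays and mutant 3 slightly above the controls. Its log2 fold change was 1.14 (limma adjusted p = 0.561). Without mutant 2, 2 genes of the list were lower (5.61% of all genes) and 2 higher (6.29% of all genes) at the unadjusted threshold. The higher were Mmp13 (1.78, adjusted p = 0.531) and Mmp3 (0.39, adjusted p = 0.460), and Timp3 had -0.56 (SE 0.11, adjusted p = 0.163). Mmp10 and Mmp3, stromelysins, were also highest in mutant 1, with 6.13 and 4.52, against at most 5.29 and 3.98 in controls, and Mmp2, the gelatinase of fibroblasts, had 8.44, 4.91 and 8.68 in mutants, against 8.55, 8.75 and 8.51 in controls.

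Of 8 collagen receptors none passed at either threshold. Lair1, an inhibitory receptor of leukocytes (log2 fold change -0.27, SE 0.12, limma adjusted p = 0.400), and Itga1, the alpha 1 integrin of mesenchymal cells (-0.92, SE 0.46, adjusted p = 0.442), had the smallest p. Ddr1, the discoidin receptor of epithelia, was between 10.38 and 10.72 in mutants and between 10.28 and 10.84 in controls, while Ddr2, that of mesenchymal cells, was 8.08, 6.38 and 8.17 in mutants, against 8.47, 8.34 and 8.20 in controls. Of 9 small leucine-rich proteoglycans, which bind fibrils and set their spacing, 3 were lower at an unadjusted p up to 0.05. Aspn, asporin, had -1.71 (SE 0.63, adjusted p = 0.333), Ogn, osteoglycin, -1.96 (SE 0.72, adjusted p = 0.336) and Dcn, decorin, -1.25 (SE 0.49, adjusted p = 0.359). Without mutant 2 these were -1.03, -1.07 and -0.63, and 4 of the 9 were lower at that threshold (5.61% of all genes). The fourth was Prelp, with -0.51 (SE 0.12, limma adjusted p = 0.255). Ogn and Dcn also stand in the fibroblast list.

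Of 14 laminin network genes, the partners of type IV collagen in basement membranes, the log2 fold change was negative for 13, and its median was -0.35 with all arrays and -0.17 without mutant 2. None passed the test, and 1 was lower at an unadjusted p up to 0.05. Agrn, agrin, a heparan sulfate proteoglycan, had 7.31, 6.98 and 7.03 in mutants, against 8.31, 7.58 and 8.28 in controls, a log2 fold change of -0.95 (SE 0.21, limma adjusted p = 0.148), and the 3 mutants lay below the controls. Control 2 was the lowest control, and without it Agrn passed the test (-1.19, SE 0.13, limma adjusted p = 0.0346), in a fit where the share of all genes called was not counted. Nid2, nidogen 2, followed with -0.27 (SE 0.12, adjusted p = 0.408). Lamb1, a laminin chain, and Nid1, which links laminin to type IV collagen, were low in mutant 2. Lamb1 had 8.72, 6.20 and 8.70 in mutants, against 9.31, 9.06 and 8.99 in controls, and Nid1 had 8.74, 5.08 and 8.80 in mutants, against 9.27, 9.00 and 8.88 in controls. Lamb3, a chain of an epithelial laminin, was not, with 9.79, 9.93 and 10.16 in mutants, against 10.19, 10.08 and 9.86 in controls. Lama3, a further laminin chain, had 7.80, 7.11 and 6.65 in mutants, against 7.35, 7.90 and 7.69 in controls. For Lama3 mutants 2 and 3 lay below every control, with mutant 3 the lowest.

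**Figure D4:**
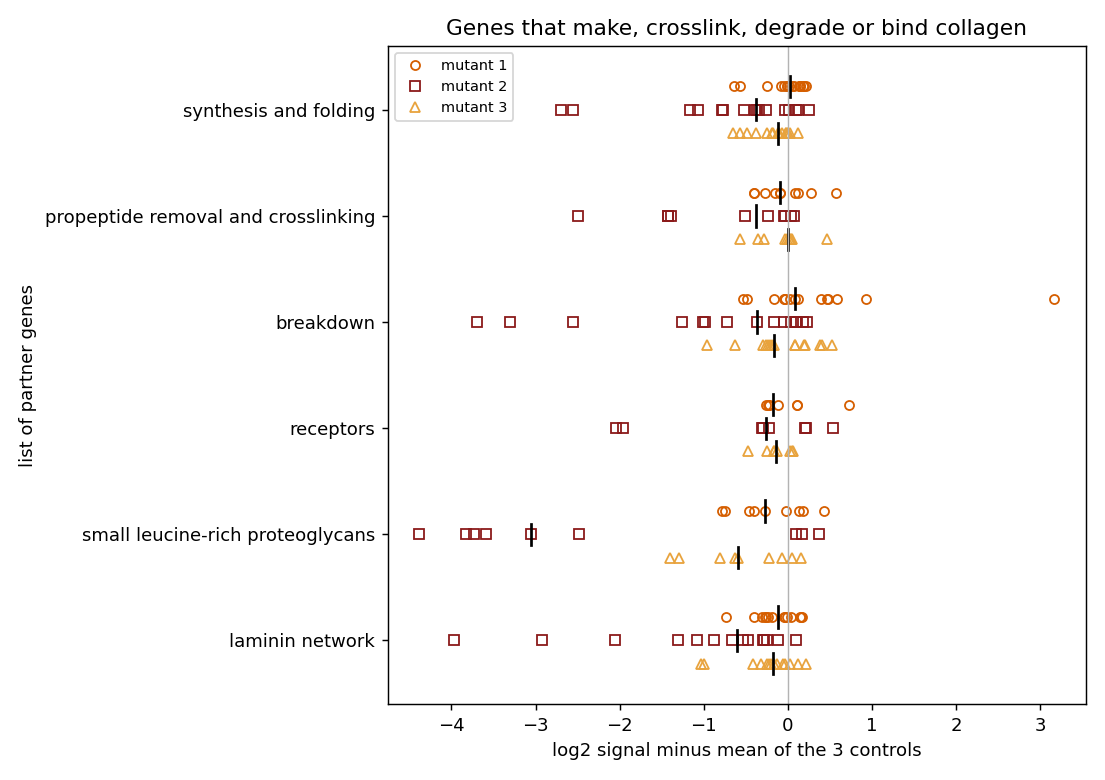
Difference in log2 signal from the control mean (horizontal axis) in mutants 1, 2 and 3 for each measured gene of 6 lists of collagen partners (vertical axis), with black bars at the list medians. The proteoglycans have a median of -3.06 in mutant 2 and of -0.27 and -0.59 in mutants 1 and 3, and the single point at the far right is Mmp13 in mutant 1.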

How the data were processed

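RNA from 6 colons, 3 mutant and 3 control, had been hybridised to 1-colour Affymetrix arrays. The authors normalized the arrays by RMA, which corrects background, equalises quantiles and summarises each probe set, and the deposited values are log2 signals, used here as given. Equal quantiles make values relative within an array, so that RNA lost from one cell type raises others slightly. Median log2 signals were 5.43 to 5.53. Of 45101 probe sets 64 controls were left out. Genes were named from GEO's platform annotation, which gave 1 symbol to 34945 probe sets, several to 932 and none to 9160. All 45037 were fitted with limma 3.58.1 in R 4.3.3, mutant minus control, with Benjamini-Hochberg adjustment over all of them. The code was tested on simulated data. The study's methods used SAM, which was not rerun. The array number, 3 per group, limits precision, and an exact permutation test could give no two-sided p below 0.1.

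The members, gene lists and tests were chosen with earlier results of these data known. Values in every array were given for 16 collagens set by name and for any other with an unadjusted p of 0.05 or less with all arrays or without mutant 2, of which there was none. Partner genes were named if called, and otherwise for the 2 smallest p in each list. Serpinh1, P4hb, Mmp2, Mmp3, Mmp10, Mmp13, Ddr1, Ddr2, Lama3, Lamb1, Lamb3, Nid1, Dcn, Prelp, the markers Cd68 and Krt13 and the collagens outside the 16 were named after their values were seen. Ddx3y, of 4 Y-linked genes listed, was not measured by a probe set with a single symbol.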

Additional observations from a re-analysis of the deposited data

How the results depend on the processing

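No collagen gene was called under any of the 12 alternatives. The 16 named collagens kept the sign of their log2 fold change wherever they were fitted (10 of them have a second probe set, and Col17a1 was dropped as dim), except as follows. With array weights Col18a1 had 0.14 and Col7a1 0.01. With 1 array left out, the log2 fold change of Col1a1 ranged from -1.55 to 0.21, that of Col18a1 from -0.25 to 0.22 and that of Col7a1 from -0.16 to 0.04.

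When only probe sets with a mean of 5 or more were fitted, 29 of the 42 collagens remained, and the median was -0.43 over these, -0.85 for fibrillar, -1.08 for basement membrane and -0.20 for other collagens, because dim genes had been dropped. A further fit took the second brightest probe set of the 27 collagens with several, and the only probe set of the rest. There the fibrillar median was -0.07, and the 1 collagen lower at the unadjusted threshold was Col4a5 and not Col4a6. With 1 array left out, the medians ranged from -0.23 to -0.05 for all 42, from -0.64 to -0.09 for fibrillar, from -0.60 to -0.24 for basement membrane and from -0.15 to 0.04 for other collagens. At an unadjusted p of 0.05 or less, 1 to 5 collagens were then lower and 0 to 1 higher, the 5 and the 1 without mutant replicate 1. The partner genes were the 16, 10, 15, 8, 9 and 14 measured in the 6 lists. Of these, 9 were lower at an unadjusted p of 0.05 or less with all arrays, mutant 2 among them (6.18% of all genes). With 1 array left out, 4 (without control replicate 3) to 17 (without mutant replicate 1, 7.32% of all genes) were lower and 0 to 2 higher. The fit with 17 left mutant 2 as 1 of the remaining 2 mutants. The share of all genes was not counted without control replicate 3. With 1 array left out, 0 to 2 partner genes were called lower. These were Agrn and Colgalt1 without control replicate 2. With array weights 1 partner gene, Agrn, was called lower, and 1 was higher at the unadjusted threshold. The share of all genes was not counted with array weights or without control replicate 2, so these counts cannot be set against it.

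The replicate numbers of the titles were also used as a replicate block, which gave 3 collagens lower at the unadjusted threshold (Col4a5, Col4a6 and Col23a1) and no call. The share of all genes was not counted in that fit, so this count cannot be set against it. Deviations of same-numbered mutants and controls correlated at -0.0247, 0.252 and -0.15, and those of differently numbered ones between -0.292 and 0.381. With 3 mice per group these values cannot decide whether the numbers pair the mice.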
